A study of Mus musculus with 8 samples.

Results

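The genes described here are those of IgA secretion in the gut: the constant regions of the alpha heavy chain (Igha), the mu heavy chain (Ighm) and the kappa and lambda light chains (Igkc, Iglc2), the joining chain (Jchain), the plasma cell genes Mzb1, Pou2af1, Irf4 and Tnfrsf17, and the epithelial transporter Pigr. They were chosen by symbol, and all 10 were found among the 16130 genes of the deposited count table. Total RNA of the distal colon was read in 8 libraries, 4 from mice kept for 4 months in conventional, non-enriched housing (NE) and 4 from mice kept as long in enriched housing (EE). Mice of both groups carried the same alleles, given as Tcf4Het/+ and ApcMin/+, so no group without the tumour-prone Apc allele was compared. Neither age nor the link between libraries and animals is given in the labels, so p-values measure the spread between these samples, which may be technical. The colon markers Car1, Aqp8, Muc2, Slc26a3 and Hoxd13 had counts in all 8 libraries. Each had a lower EE mean, from 60.4% of the NE mean for Aqp8 to 80.7% for Hoxd13, and none passed the test over all genes used below.

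IgA is the main antibody of the gut. Plasma cells in the lamina propria, the connective layer under the epithelium, assemble alpha heavy chains with kappa or lambda light chains and link the IgA units through the joining chain. The polymeric immunoglobulin receptor, the product of Pigr, binds that polymer on the basal side of the epithelial cell, carries it across and releases it into the lumen with a part of itself, the secretory component. In bulk tissue a lower value of a plasma cell gene can come from fewer such cells or from less RNA in each, and these cannot be told apart here.

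Library totals ran from 4735764 to 10586851 counts, and EE 4 stood apart from the other libraries in many transcripts of the colon wall. The fold change columns of the authors' deposited table were positive where NE was higher, the reverse of EE minus NE as the columns are labelled for 97.8% of 14311 tested genes. The sources used here do not say if NE was the numerator or the labels were exchanged, and EE and NE below mean the libraries labelled so. Levels are in CPM, counts scaled to the size of each library, and for comparisons between genes in CPM per kilobase of annotated exon.

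Per kilobase, the light and heavy chains of IgA stood beside the transporter at the top of the group and the plasma cell regulators far below. In NE Igkc led with 1441 ± 361 CPM per kilobase (SD, n = 4), and its range did not overlap that of Pigr at 842 ± 108. Pigr overlapped with Igha at 722 ± 143, and Igha with Jchain at 420.0 ± 128. Iglc2 followed without overlap at 26.1 ± 4.89, above Ighm at 14.4 ± 1.67 and Mzb1 at 13.6 ± 4.37, which overlapped each other. Pou2af1, Irf4 and Tnfrsf17 came last at 3.85 ± 1.27, 2.61 ± 0.522 and 1.75 ± 0.281, each overlapping the next. In EE Mzb1 (9.15) and Ighm (9.05) were in the opposite order, and every neighbouring pair overlapped.

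The first comparison asks whether the IgA chains and their plasma cells differed between the kinds of housing. Igha (ENSMUSG00000095079, GRCm38 chromosome 12, 113254830 to 113260236, minus strand) encodes the heavy chain that makes an antibody IgA. Igha was at 2151, 2089, 1356 and 2109 CPM in NE 1 to NE 4 and at 869, 1225, 1593 and 197 CPM in EE 1 to EE 4. NE 3 was well below the other NE libraries and EE 3 lay above it, so the groups overlapped. The EE mean was 50.4% of the NE mean, and the log2 fold change was −0.99 (SE 0.48, edgeR adjusted p = 0.522). Without EE 4 the log2 fold change was −0.64 (SE 0.25, edgeR adjusted p = 0.722).

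Igkc (ENSMUSG00000076609, chromosome 6, 70726435 to 70726966, a single exon on the plus strand) is the constant part of the kappa chain, the light chain of most mouse antibodies. Igkc was at 764, 807, 515 and 980.1 CPM in NE 1 to NE 4 and at 366, 605, 727 and 75.8 CPM in EE 1 to EE 4. As for Igha, NE 3 was lowest among NE, EE 1 and EE 4 lay below every NE library, and the groups overlapped. The log2 fold change was −0.79 (SE 0.52, edgeR adjusted p = 0.586) with all libraries and −0.43 (SE 0.27, edgeR adjusted p = 0.755) without EE 4.

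Jchain (ENSMUSG00000067149, chromosome 5, 88519809 to 88527891, minus strand) encodes the small protein that joins IgA units and is needed for binding to the transporter. Jchain was at 1143, 1084, 616 and 1386 CPM in NE and at 514, 1047, 952 and 107 CPM in EE, libraries 1 to 4 in each. EE 2 and EE 3 lay within the NE range, and EE 1 and EE 4 below it. The log2 fold change was −0.69 (SE 0.54, edgeR adjusted p = 0.632), and −0.33 (SE 0.31, edgeR adjusted p = 0.822) without EE 4.

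The remaining chains were less abundant. Ighm, the heavy chain of IgM, which the same transporter carries, was at 26.5, 28.7, 22.9 and 30.2 CPM in NE and at 18.0, 29.3, 16.5 and 4.44 CPM in EE. Of the EE libraries EE 2 alone lay within the NE range of Ighm, and its log2 fold change was −0.67 (SE 0.40, edgeR adjusted p = 0.561). Without EE 4 it was −0.34 (SE 0.21), and without EE 2 it was −1.07 (SE 0.38). Iglc2, a lambda light chain, was at 18.5, 14.6, 12.4 and 18.4 CPM in NE and at 5.52, 18.4, 27.2 and 2.22 CPM in EE. EE 3 held the highest Iglc2 value of all 8 libraries and EE 4 the lowest. Its log2 fold change was −0.24 (SE 0.57, edgeR adjusted p = 0.875), and the sign turned without EE 4, to 0.13 (SE 0.41). Lambda constant genes have near-identical copies, so how reads were shared between Iglc2 and its copies is uncertain.

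**Figure D1:**
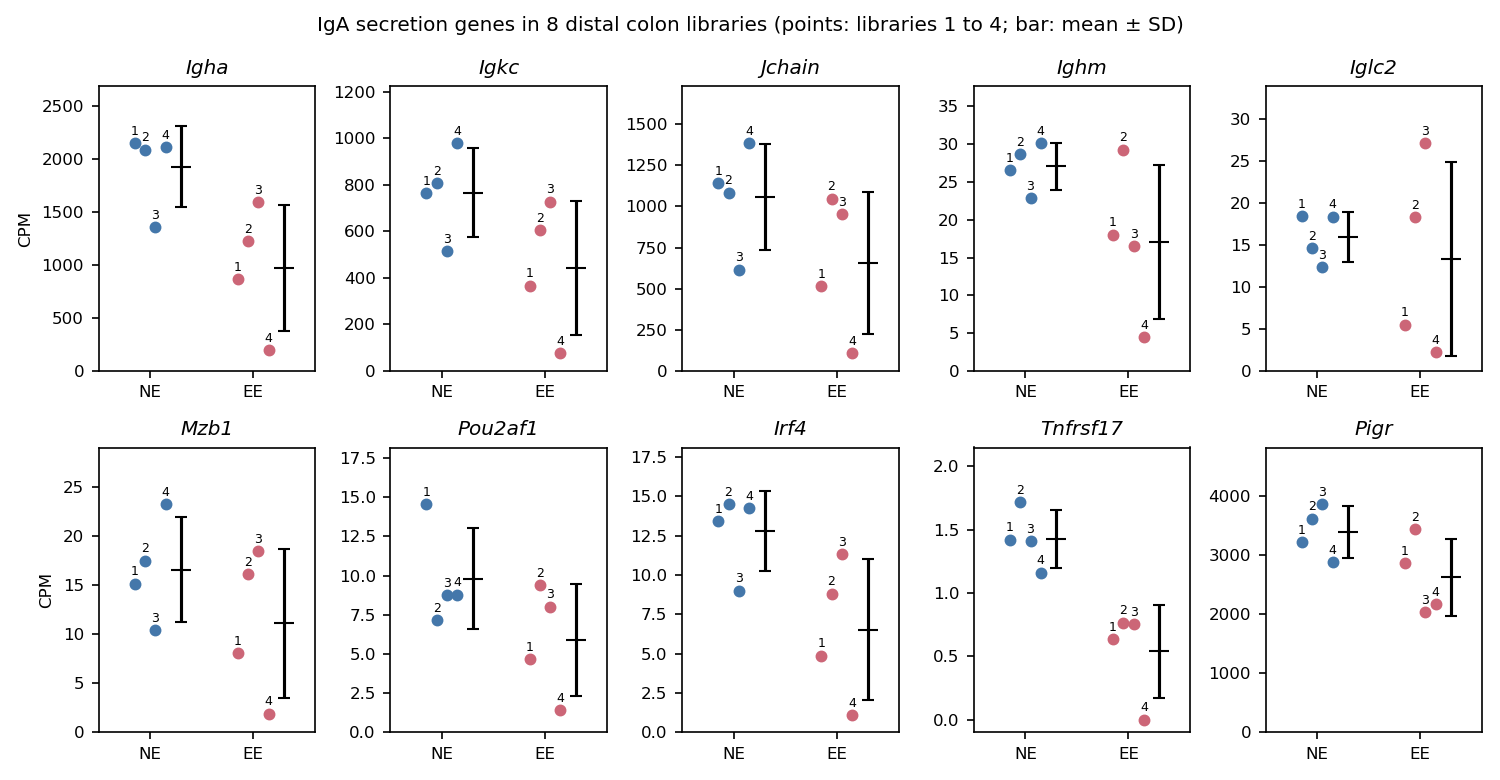
Level of each member in CPM (vertical axis, from 0 except for the small margin under Tnfrsf17) in the NE (blue) and EE (red) libraries, with the library number beside each point and the mean ± SD beside each group. EE 4 is the lowest point for 9 of the 10 genes, Pigr being the exception, and the groups overlap for 9 of 10.

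Among the plasma cell genes Irf4, the transcription factor needed for plasma cells to form, stood at 13.4, 14.5, 9.01 and 14.3 CPM in NE and at 4.88, 8.80, 11.3 and 1.11 CPM in EE. EE 3 was again above NE 3, and the other EE libraries were below every NE library. The log2 fold change of Irf4 was −0.96 (SE 0.49, edgeR adjusted p = 0.533), and −0.58 (SE 0.29, edgeR adjusted p = 0.722) without EE 4. In EE 4 this gene rested on 7 counts, against 85 to 101 in the NE libraries.

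Mzb1, an endoplasmic reticulum protein that helps antibody chains to fold, ranged from 10.4 to 23.2 CPM in NE and from 1.90 to 18.4 CPM in EE (log2 fold change −0.56, SE 0.51, edgeR adjusted p = 0.672). Pou2af1, the coactivator of octamer-binding factors on immunoglobulin promoters, ranged from 7.17 to 14.5 CPM in NE and from 1.43 to 9.38 CPM in EE (log2 fold change −0.74, SE 0.46, edgeR adjusted p = 0.568). Both ranges overlapped between the groups, with EE 1 and EE 4 below every NE library. Without EE 4 the log2 fold changes were −0.19 for Mzb1 and −0.39 for Pou2af1, and without EE 3 that of Mzb1 was −0.94. The annotation marks Igkc, Mzb1 and Pou2af1 as overlapping another locus, and the strand setting of the counting is not given in the sources used here.

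Tnfrsf17 encodes BCMA, the receptor through which plasma cells take up survival signals. It had 9, 12, 15 and 7 counts in NE 1 to NE 4 and 3, 4, 5 and 0 counts in EE 1 to EE 4, or 1.43 ± 0.229 and 0.540 ± 0.364 CPM (SD, n = 4 each). The 0 counts in EE 4 allow a level of up to 0.476 CPM (3 counts, counting error only). It was the 1 member whose groups did not overlap, and the 1 member too low for the test over all genes. A two-sided exact permutation test on its CPM, run for this gene alone, gave p = 0.0286, the smallest that 4 against 4 allows, before any adjustment. Groups that do not overlap always give this p, so the test adds nothing to the ranges. All EE values lay below all NE values for 2.02% of tested genes. Fitted with no filter on low counts its edgeR adjusted p was 0.514.

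Pigr (ENSMUSG00000026417, chromosome 1, 130826684 to 130852249, plus strand) is made by epithelial cells, and its libraries stood in another order. Pigr was at 3213, 3615, 3854 and 2875 CPM in NE and at 2860, 3435, 2032 and 2163 CPM in EE. NE 3, the lowest NE library for 7 of the 10 members, was the highest of all for Pigr, and EE 3, the highest EE library for Igha, was the lowest. EE 2 lay within the NE range, and EE 1 was below NE 4 by a small margin. The log2 fold change was −0.37 (SE 0.20, edgeR adjusted p = 0.544), and −0.29 (SE 0.20, edgeR adjusted p = 0.776) without EE 4.

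Counted over the group, 9 of the 9 tested members had a log2 fold change below 0, with a median of −0.69, where 49.7% of all 14311 tested genes did, with a median of 0.0021. With edgeR 0 of the 9 had an adjusted p under 0.05 (0% of all tested genes) and 0 an unadjusted p under 0.05 with a lower EE level (3.75% of all tested genes). The limma-voom test gave 3 members with an unadjusted p under 0.05 and a lower EE level (5.79% of all tested genes by that test) and 0 with an adjusted one. No tested member had all EE values below all NE values, which held for 2.02% of tested genes. Library by library, EE 1 and EE 4 lay below every NE library for 10 of 10 members, EE 2 for 3 and EE 3 for 3. The share of all tested genes below every NE library was 26.1% for EE 1, 16.8% for EE 2, 31% for EE 3 and 36.4% for EE 4. Without EE 4, 8 of the 9 members were below 0 with a median of −0.34, beside 49.2% of the 14549 genes then tested. Over the other tools, scalings, filters, block and left-out libraries tried, the trend dispersion described next excepted, adjusted p ran from 0.293 to 0.843 for Igha and from 0.19 to 0.998 over the tested members. The members share cells and libraries and so are not independent of each other.

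**Figure D2:**
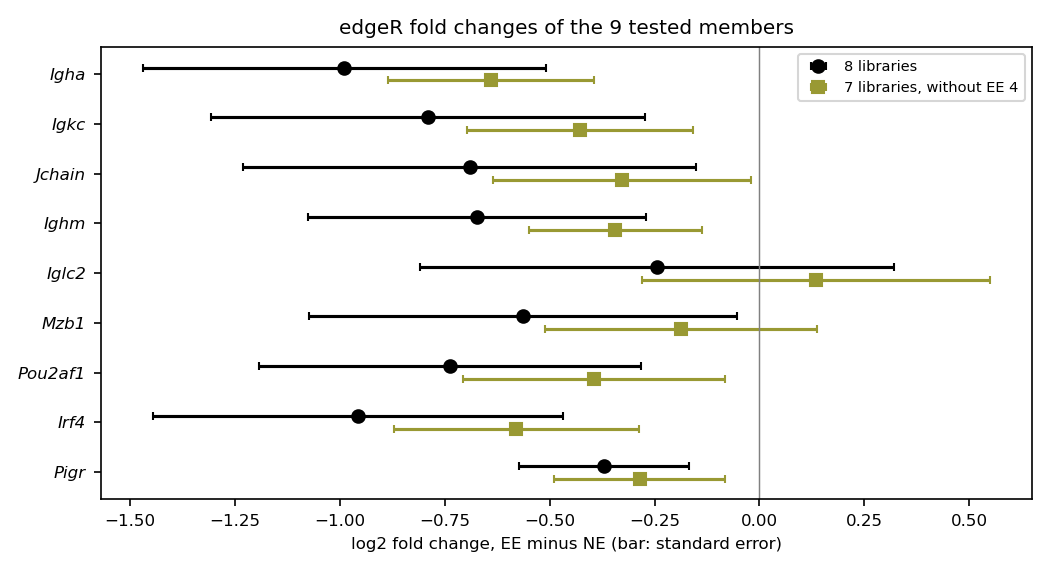
Log2 fold change, EE minus NE, of the 9 tested members from edgeR with all 8 libraries (black) and without EE 4 (olive), with its standard error as a bar. With 8 libraries Igha lies at −0.99 and Iglc2 at −0.24, and without EE 4 Iglc2 is the 1 gene above 0.

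Of the 10 members, 3 had in the authors' deposited table an FDR under 0.05 with a positive log2 fold change, which held for 1.32% of the genes in that table. These were Igha (0.00028), Igkc (0.0123) and Jchain (0.0492), with log2 fold changes of 1.30, 1.13 and 1.04 in the authors' deposited table. The other 7 were also positive in the authors' deposited table, with FDR from 0.105 for Irf4 to 0.957 for Iglc2. DESeq2 run on the same counts gave Igha an adjusted p of 0.543, and called 0.021% of tested genes as lower in EE, none of them a member. When every gene was given the dispersion of the fitted trend, DESeq2 called the same 3 members, Igha with an adjusted p of 2.97e-05, Igkc with 0.00304 and Jchain with 0.0147. That setting called 1.09% of tested genes as lower in EE. It leaves out the spread of the gene's own libraries, which for Igha ran from 197 to 1593 CPM within EE.

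Ratios between members within a library need no scaling between libraries, and they show how far the genes kept step. Over the 8 libraries Igha in CPM spanned 10.9-fold from lowest to highest, Igkc 12.9-fold, Jchain 12.9-fold and Irf4 13.04-fold, while Pigr spanned 1.90-fold. The ratio of Igha to Igkc counts spanned 1.39-fold. It was 2.82, 2.59, 2.63 and 2.15 in NE 1 to NE 4 and 2.37, 2.02, 2.19 and 2.59 in EE 1 to EE 4, so EE 4 lay inside the NE range. Igha to Irf4 spanned 1.28-fold, at 160.3, 144, 150.5 and 148 in NE and 178, 139, 141 and 177 in EE. Irf4 rested on 7 counts in EE 4 and 23 in EE 1, so counting error leaves its order beside Igkc uncertain. Between the groups the log2 ratio of Igha to Irf4 differed by 0.03 (p = 0.743 in an exact permutation test, two-sided like the others below).

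Igha and Jchain kept step less closely. Igha to Jchain was 1.88, 1.93, 2.202 and 1.52 in NE and 1.69, 1.17, 1.67 and 1.83 in EE. EE 2 was the lowest, and the groups overlapped (difference of log2 ratio −0.25, exact permutation p = 0.229; −0.11 without EE 2). Igha to Mzb1 ranged from 90.9 to 142 in NE and from 76.2 to 108 in EE (difference of log2 ratio −0.38, exact permutation p = 0.0857). Igha to Pou2af1 ranged from 148 to 291 in NE and from 131 to 199 in EE (exact permutation p = 0.314). Igha to Tnfrsf17 ranged from 963 to 1818 in NE and from 1364 to 2108 in EE 1 to EE 3, and in EE 4 the 0 counts of Tnfrsf17 give at least 413 (3 counts in that library).

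The make-up of the antibody chain RNA varied more. For each 100 Igha counts there were 1.23, 1.37, 1.69 and 1.43 Ighm counts in NE and 2.077, 2.39, 1.03 and 2.26 in EE. EE 1, EE 2 and EE 4 thus had more Ighm counts per Igha count than any NE library, and EE 3 had fewer than any. Which cells made the Ighm RNA was not tested. The difference in log2 of Igha to Ighm was −0.38 (exact permutation p = 0.229). Iglc2 to Igkc was 0.0242, 0.0181, 0.0240 and 0.0188 in NE and 0.0151, 0.0304, 0.0374 and 0.0293 in EE. Again 3 EE libraries lay above every NE library and the other, here EE 1, below (difference of log2 ratio 0.35, exact permutation p = 0.229). Ighm rested on 85, 109 and 28 counts in EE 1, EE 3 and EE 4, and Iglc2 on 26, 96 and 14 counts in EE 1, EE 2 and EE 4. Counting error leaves the places of these libraries beside the NE range uncertain for the ratio concerned.

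**Figure D3:**
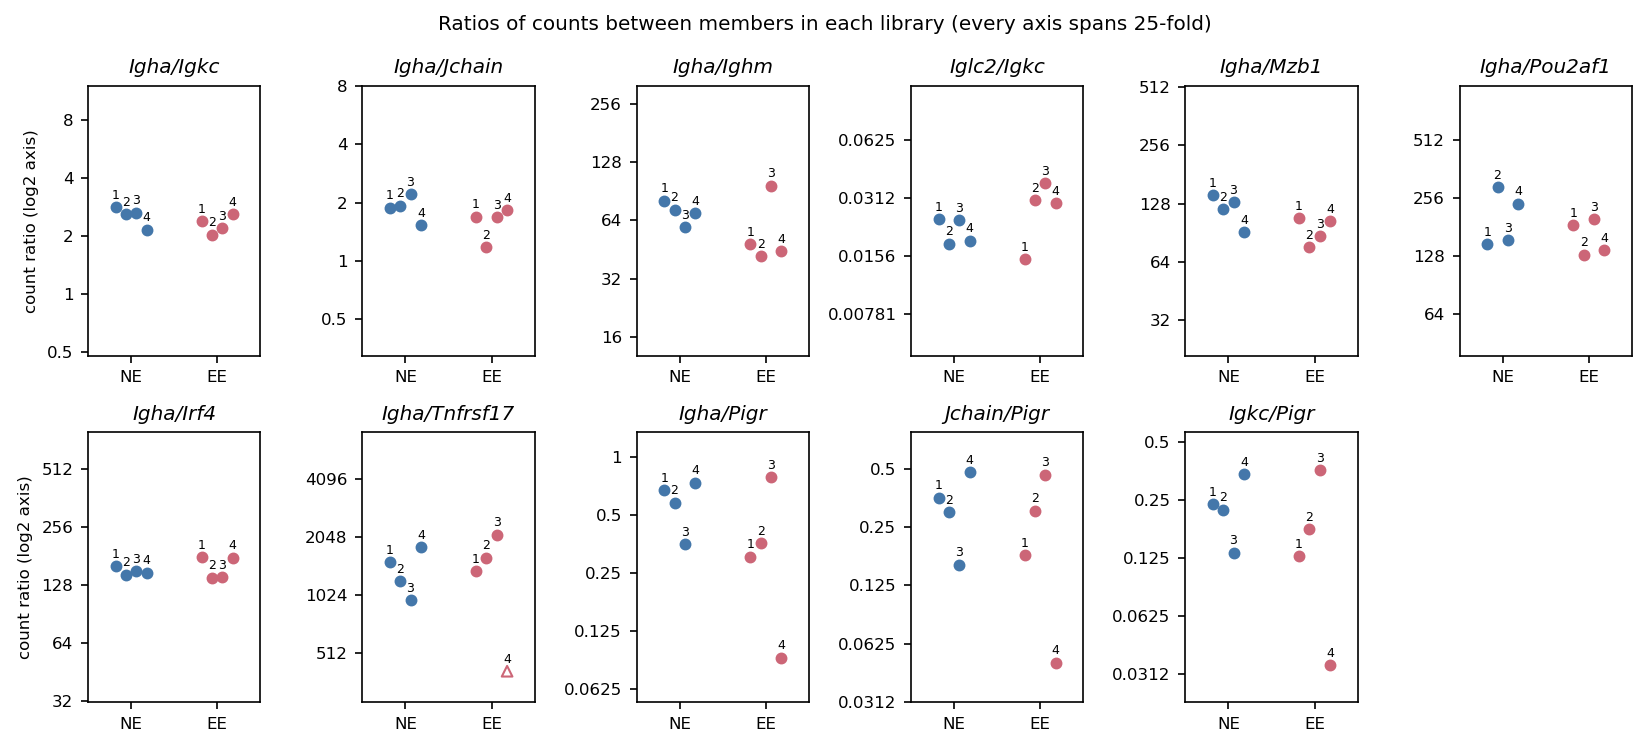
Ratio of counts between 2 members in each library (log2 axis, every panel with the same span), NE in blue and EE in red, library numbers beside the points; the open triangle is a lower bound where Tnfrsf17 had 0 counts. The Igha to Irf4 points lie between 139 and 178 in all 8 libraries, while those of Igha to Pigr run from 0.0909 to 0.784.

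The ratios of antibody chain to transporter varied the most of the 11. Igha to Pigr was 0.670, 0.578, 0.352 and 0.734 in NE 1 to NE 4 and 0.304, 0.357, 0.784 and 0.0909 in EE 1 to EE 4. EE 3 lay above every NE library, EE 1 and EE 4 below every one, and EE 2 just above NE 3. The log2 ratio differed by −0.92 between groups whose SDs were 0.47 and 1.28 (exact permutation p = 0.314). Jchain to Pigr and Igkc to Pigr spanned 9.70-fold and 10.2-fold over the libraries and differed by −0.67 and −0.77 in log2 (exact permutation p = 0.486 and 0.400). Without EE 4 the differences of log2 ratio were −0.35 for Igha, −0.029 for Jchain and −0.14 for Igkc to Pigr, and the spans 2.58-fold, 3.02-fold and 2.79-fold. Without EE 3 the 3 differences were −1.39, −1.11 and −1.26. Of the 11 ratios tested, 0 had an adjusted p under 0.05 (exact permutation tests, Benjamini-Hochberg over the 11, lowest 0.432), which this design could pass only if most of the ratios reached the smallest p together.

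**Figure D4:**
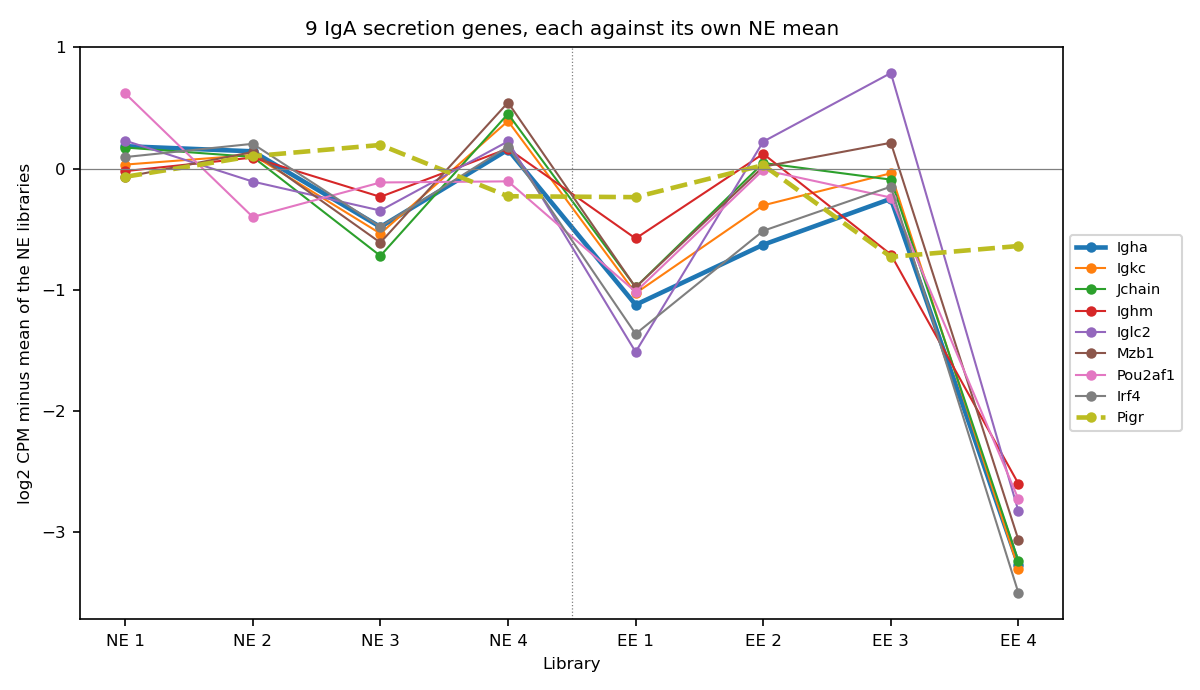
Log2 CPM of 9 members in each library minus the gene's own mean over the NE libraries; lines join the values of 1 gene, and Pigr is dashed. The 8 antibody and plasma cell genes lie together at EE 4, where the NE mean is 6.10 (Ighm) to 11.5 (Irf4) times the EE 4 level, and Pigr lies apart at 1.57 times.

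Likeness to Igha was measured over 12047 genes with a mean of at least 5 CPM, leaving out symbols that start with Igh, Igk or Igl, as the SD over libraries of the log2 CPM difference from Igha. The smallest SD was that of Irf4, 0.11 over 8 libraries and also 0.11 over the 7 without EE 4. Over 8 libraries Lax1, an adaptor protein of lymphocyte receptors, came next with 0.14. Without EE 4 it had 0.15 and stood behind Apoc2, an apolipoprotein gene, with 0.12. The mean of Lax1 was 8.04 CPM for NE and 4.16 CPM for EE, with 0.634 CPM in EE 4. Jchain was the third over 8 libraries (0.27), before Olfml3 and Ccl8 (0.30 each), and Igkc, outside the ranking, had 0.17. Without EE 4 Jchain had 0.29 and stood at place 47, Mzb1 at 122 and Pou2af1 at 700. Of the first 5 genes, 2 were the same without EE 4. For Pigr the 5 closest were Crebl2, Plcl2, Ttc7b, Ppm1e and Galm, with SDs from 0.095 to 0.11, and 0 of them were among the first 5 without EE 4. Igha itself had an SD of 1.02 from Pigr, and 0.57 without EE 4.

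Promoters are shown for 4 members: Irf4, whose ratio to Igha spanned least, Jchain and Tnfrsf17, with wider spans, and Pigr, whose ratio to Igha varied the most. Tnfrsf17 had 0 to 15 counts, so counting error adds to the span of its ratio. RefSeq (GRCm38.p6) entries matched 5 of the 10 members, and the 250 bases before the annotated start are printed 5′ to 3′ on the gene's strand. Jchain is chr5:88527898-88528147 (minus), Irf4 chr13:30748983-30749232 (plus), Tnfrsf17 chr16:11313559-11313808 (plus) and Pigr chr1:130826434-130826683 (plus). Capitals mark matches to a searched motif.
Jchain: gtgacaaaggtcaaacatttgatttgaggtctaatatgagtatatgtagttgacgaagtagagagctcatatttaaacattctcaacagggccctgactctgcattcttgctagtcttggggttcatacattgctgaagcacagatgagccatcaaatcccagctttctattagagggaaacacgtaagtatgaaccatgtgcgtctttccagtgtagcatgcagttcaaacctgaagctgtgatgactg
Irf4: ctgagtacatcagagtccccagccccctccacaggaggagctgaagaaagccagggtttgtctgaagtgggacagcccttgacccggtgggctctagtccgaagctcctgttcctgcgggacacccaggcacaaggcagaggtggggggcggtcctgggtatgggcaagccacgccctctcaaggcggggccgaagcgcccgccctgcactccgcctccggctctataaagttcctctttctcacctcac
Tnfrsf17: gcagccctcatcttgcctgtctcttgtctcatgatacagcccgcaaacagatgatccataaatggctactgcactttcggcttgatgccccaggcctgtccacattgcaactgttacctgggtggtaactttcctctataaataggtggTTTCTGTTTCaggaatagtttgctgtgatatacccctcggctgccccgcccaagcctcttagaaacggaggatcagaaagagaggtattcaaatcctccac
Pigr: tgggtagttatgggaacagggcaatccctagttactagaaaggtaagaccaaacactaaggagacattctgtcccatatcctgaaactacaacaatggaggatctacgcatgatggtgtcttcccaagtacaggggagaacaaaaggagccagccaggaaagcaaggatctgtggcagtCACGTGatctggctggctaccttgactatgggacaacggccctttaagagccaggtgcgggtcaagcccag
The motifs searched on both strands were the octamer ATGCAAAT, the interferon response core (GAAA, any 2 bases, GAAA), the ETS and IRF composite (GGAA, any 2 bases, GAAA) and the E-box CACGTG; the middle pair can share bases. Of 32851 RefSeq windows of this length they occurred in 1.6%, 2.98%, 2.3% and 6.02%. Tnfrsf17 held the interferon response core on its minus strand, starting 101 bases before the start site, and Pigr held CACGTG, 71 bases before it. Jchain, Irf4 and Pou2af1 held none of the 4, which says only that these letters are not in this window.

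The wider pathway was followed in gene lists. The 3 tested constant genes of other classes, Ighg1, Ighg2b and Ighg2c, had log2 fold changes of −1.07, −0.29 and −0.75 (edgeR adjusted p 0.622, 0.776 and 0.609). Without EE 4 they were −0.75, 0.03 and −0.36, so that the sign of Ighg2b turned. IgG constant genes resemble each other closely, so the split of their reads is uncertain. Of 24 genes of plasma cell identity and the secretory machinery, 0 passed the test, 19 were lower and 5 higher in EE, with a median log2 fold change of −0.19, and −0.10 without EE 4. Derl3, a factor of protein disposal in the endoplasmic reticulum, and Xbp1, which drives the secretory programme, had the smallest p, with log2 fold changes of −1.05 (SE 0.38) and −0.30 (SE 0.12). Genes listed for plasma cell identity went both ways. Slamf7, Tnfrsf13b, Cd38 and Eaf2 had log2 fold changes of −0.74, −0.71, −0.41 and −0.17 (edgeR adjusted p from 0.520 to 0.908). Without EE 4 they were −0.40, −0.49, −0.32 and 0.10. The NE means of these genes were 3.55, 4.36, 349 and 2.72 CPM, beside 12.8 CPM for Irf4. Which cells made the RNA of Cd38, or of Prdm1 below, was not tested. Prdm1, the factor that fixes the plasma cell state, had a mean of 16.1 ± 3.04 CPM for NE and 22.8 ± 5.11 CPM for EE (log2 fold change 0.50, edgeR adjusted p = 0.520). In EE 4 Prdm1 was at 132% of the mean of EE 1 to EE 3, Cd38 at 76.3%, Tnfrsf13b at 46.9%, Eaf2 at 40.3% and Slamf7 at 24.6%. Sdc1, a surface proteoglycan used as a plasma cell marker and also made by epithelium, had a log2 fold change of 0.16. It ranged from 391 to 436 CPM over NE and from 438 to 523 CPM over EE, without overlap (edgeR adjusted p = 0.609). Xbp1, lower in EE, also did not overlap, with 305 to 347 CPM over NE and 245 to 299 CPM over EE. Of all tested genes 2.02% lay lower in EE without overlap, and the share lying higher was not counted. Lower in EE without overlap were also Aldh1a2, Ifngr1, Irf1, Cd22, Cd8a and Mertk, from the lists below. Much of the secretory machinery is also made by goblet and other epithelial cells. The summed level of all 24 genes in EE 4 was 89.2% of the mean of EE 1 to EE 3, where Igha was at 16.0% of it and Jchain at 12.8%. Hspa5, Hsp90b1, Txndc5 and Sdc1 weigh most in that sum, with NE means of 799, 602, 493 and 415 CPM. In EE 4 these 4 were at 96.1%, 81.0%, 102% and 97.7% of their means over EE 1 to EE 3.

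Signals for class switching and plasma cell survival did not lean one way. Of 14 tested genes 7 were lower and 7 higher in EE, 0 passed, and the median log2 fold change was 0.05, or −0.04 without EE 4. Tnfrsf13c, the BAFF receptor of B cells, was at 0 counts in EE 4. The smallest p were those of Aldh1a2, an enzyme that makes retinoic acid (6.39 ± 0.691 CPM in NE and 3.21 ± 1.27 in EE, edgeR adjusted p = 0.520), and Tnfsf13, which encodes the survival factor APRIL (11.9 ± 0.844 and 9.32 ± 3.01 CPM, edgeR adjusted p = 0.569). Of 10 genes for homing of IgA cells to the gut, 8 were lower and 2 higher, 0 passed, and the median was −0.27, or −0.13 without EE 4. Madcam1, the vessel address molecule that homing cells bind, was at 0 counts in EE 4. The integrin subunits Itgb7 and Itga4, which together form its receptor, were at 7.76 ± 0.928 and 27.0 ± 5.65 CPM in NE and at 4.35 ± 2.23 and 18.8 ± 8.10 CPM in EE (edgeR adjusted p 0.520 and 0.576). Ccl28, the chemokine by which colon epithelium attracts IgA cells, was at 187 ± 18.1 and 137 ± 73.6 CPM (edgeR adjusted p = 0.594).

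Upstream regulators of Pigr were level on the whole, with 12 of 20 tested genes lower and 8 higher in EE, 0 past the test and a median log2 fold change of −0.03 (−0.04 without EE 4). Irf1, an interferon-induced factor that acts on Pigr, had means of 184 ± 8.47 CPM for NE and 143 ± 22.2 CPM for EE (log2 fold change −0.36, edgeR adjusted p = 0.520). Il17rc, a subunit of the interleukin 17 receptor, was at 74.6 ± 16.1 and 54.8 ± 10.7 CPM (edgeR adjusted p = 0.520). The cytokine gene Il17a was too low for the test, at 0.684 ± 0.576 and 3.55 ± 4.10 CPM.

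Most markers of other cells had lower EE means too, and of the 5 summed levels given here all but the epithelial one were lowest in EE 4. The 12 B cell markers summed to between 34.97 and 75.6 CPM in NE, 21.7 to 67.9 CPM in EE 1 to EE 3 and 11.4 CPM in EE 4, where Pax5 was at 0 counts. Pax5 was too low for the test, at 0.143 to 1.74 CPM in NE. Its 0 counts in EE 4 allow up to 0.476 CPM, which is within that range. All 10 tested B cell markers had negative log2 fold changes, with a median of −0.78, or −0.44 without EE 4 with 9 of 10 below 0. The 10 smooth muscle markers summed to 3552 to 5727 CPM in NE, 2339 to 4444 CPM in EE 1 to EE 3 and 688 CPM in EE 4, which is 18.8% of the mean of EE 1 to EE 3. All 10 of them had negative log2 fold changes with all libraries, with a median of −0.78, and all 10 also without EE 4, with a median of −0.45. For 10 macrophage markers the ranges were 308 to 353 and 230 to 410 CPM with 133 CPM in EE 4, and for 10 T cell markers 36.7 to 53.5 and 23.4 to 50.3 CPM with 22.8 CPM in EE 4. Negative log2 fold changes were found for 10 of 10 macrophage markers (median −0.29, and −0.04 without EE 4 with 8 of 10 below 0), 8 of 9 tested T cell markers (−0.42, and −0.14 with 6 of 9) and 8 of 10 epithelial markers (−0.13, and −0.09 with 7 of 10). The 10 epithelial markers summed to 13371 to 16941 CPM in NE, 10139 to 15768 CPM in EE 1 to EE 3 and 11088 CPM in EE 4. The smallest edgeR p in these lists were those of Cd22 and Cxcr5 (B cell), Lmod1 and Mylk (smooth muscle), Mertk and Cd163 (macrophage), Cd8a and Cd4 (T cell), and Cdx2 and Krt18 (epithelial), with lower EE means for all but Krt18 and adjusted p from 0.520 to 0.568. EE 3 and EE 4, the lowest libraries for the epithelial sum, were also the lowest for Pigr. None of the macrophage, T cell, smooth muscle or epithelial markers was at 0 counts in any library, and the part of any of these cells in the results for the members was not tested.

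**Figure D5:**
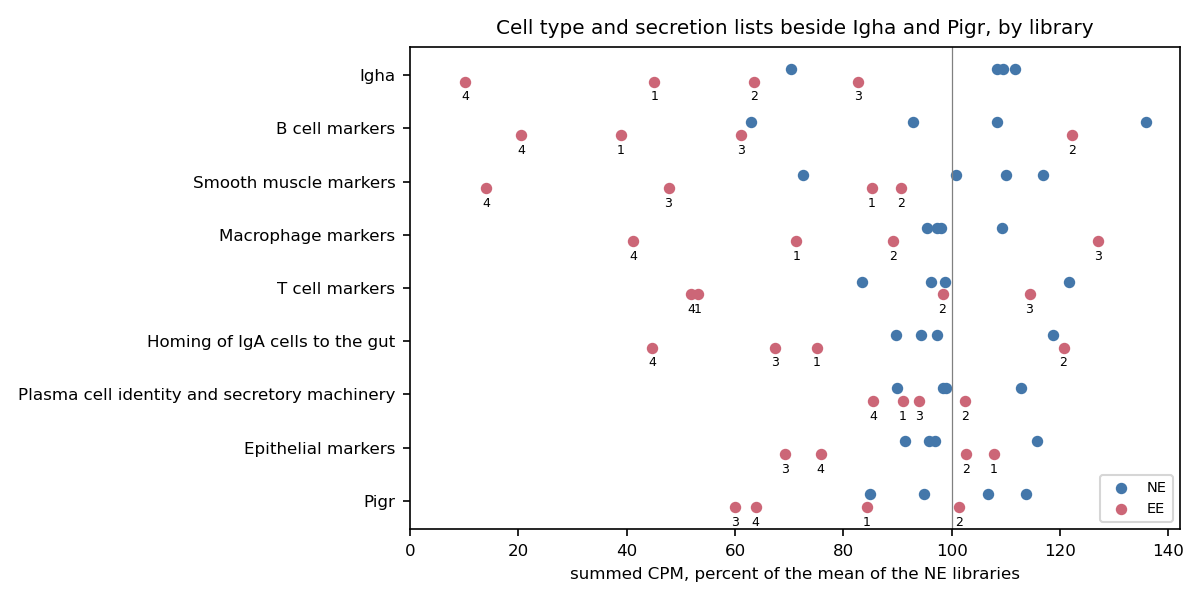
Summed CPM of each marker or pathway list, and CPM of Igha and Pigr, in each library as a percentage of the mean of the NE libraries (horizontal axis from 0; NE blue, EE red with library numbers). In EE 4 Igha is at 10.2%, the smooth muscle sum at 14.0% and the B cell sum at 20.5% of the NE mean. The sum of plasma cell identity and secretory machinery genes, much of it also made by epithelium, is at 85.5% there, and Pigr at 63.8%.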

How the data were processed

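Total RNA was made into ribosomal RNA-depleted stranded libraries and read as single ends of 50 cycles, per the labels' protocols. Novoalign 2.08.01, DESeq 1.14.0 and build mm10 are named in the submitters' processing notes; USeq is named in the labels' protocols. Annotation, counting program and strand setting: not given in the sources used here. The authors deposited raw read counts per gene (taken as such because all are whole and library totals differ) together with log2 fold changes and adjusted p-values (FDR) of their own comparison, per the file headers. Groups and replicate numbers are those of the sample titles.

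Counts were tested in R 4.3.3 with edgeR 4.0.16: filterByExpr kept 14311 genes, TMM scaling, robust quasi-likelihood test of EE against NE, Benjamini-Hochberg adjustment over all of them, threshold 0.05. The standard error is the log2 fold change divided by the square root of F. CPM use TMM-scaled library sizes, and log2 CPM a prior count of 2. Ratios are of raw counts; their log2 used a pseudocount of 0.5 and two-sided exact permutation tests (scipy 1.17.1). Positions and exon lengths are from GENCODE M21 (GRCm38, the same build as mm10). Totals of 4735764 to 10586851 counts limit the precision of low genes, and intervals and floors cover counting error only. Alternatives were DESeq2 1.42.0, limma-voom (limma 3.58.1), RLE and upper-quartile scaling, 2 other filters, the replicate number as a block, immunoglobulin genes left out and each library left out. DESeq2 with the trend dispersion, and list medians without EE 4, were added after the data were seen. Each pair of libraries differed beyond sampling noise (smallest chi-square over its degrees of freedom 7.15).

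The members and lists were chosen with earlier results of these data known. All 10 members are named; from each list the text names the 2 genes with the smallest p, and marker genes at 0. A further colon marker is not reported here. Ighg2b, Prdm1, Sdc1, Slamf7, Tnfrsf13b, Cd38, Eaf2, Hspa5, Hsp90b1, Txndc5, Ccl28, Ifngr1 and Il17a were named after their values were seen. Genes most like Igha or Pigr are the 5 with the smallest SD. Tested on counts simulated for EE against NE with 14311 genes, edgeR recovered 59 of 100 genes changed 2-fold and 87 of 100 changed 4-fold with 9 false calls, while the trend dispersion in DESeq2 gave 72 and 92, with 77 false calls. The changed genes were picked at random, every gene was drawn independently, and no library was set apart as EE 4 was. These shares are therefore not the power for the members.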

Additional observations from a re-analysis of the deposited data

Results flagged for a closer look

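Among 42 groups of 4 libraries checked for a library far from the others (10 genes and 11 ratios in NE and in EE), 3 held one, and chance flags about 1 in 20. Igha was at 1356 CPM in NE 3, against 2089 to 2151 CPM in the other NE libraries. Tnfrsf17 was at 0 CPM in EE 4, against 0.637 to 0.766 CPM in the other EE libraries, a difference of 3 to 5 counts. The log2 ratio of Igha to Ighm was 6.59 in EE 3, a ratio of 96.7 against 41.8 to 48.1 in the other EE libraries.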

How the results depend on the processing

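Over all alternatives, 144 of 149 values for the 9 tested members and 108 of 110 values for the 11 ratios kept their direction and their side of the threshold. The number of genes called was 12 with DESeq2, 277 with DESeq2 and the trend dispersion, 0 to 1 with 1 library left out (1 without EE 2) and 0 otherwise. With the trend dispersion, log2 fold changes of −0.99 for Igha, −0.79 for Igkc and −0.69 for Jchain passed, a setting that leaves out the gene's own spread. With 1 library left out Iglc2 ran from −0.88 to 0.13, above 0 without EE 1 or EE 4, and the log2 Igha to Irf4 ratio difference from −0.027 to 0.086, below 0 without EE 1 or EE 4; the cause was not tested. Igha ran from −1.34 to −0.64 and the Igha to Pigr difference from −1.39 to −0.35 with 1 library left out. With 3 against 4, or with the replicate block, the exact tests cannot pass 0.05. In those settings the ratios could not have changed their side of the threshold. The same replicate number in both groups gave no clear pairing of the libraries (correlations of deviations from −0.18 to 0.25, and 1 of 4 NE libraries closest to its own number). With 4 libraries in each group this check cannot exclude a pairing. The fit with the replicate block gave Igha −1.26 (edgeR adjusted p = 0.504) and called 0 genes. Tnfrsf17 was fitted only with looser filters, and Igha, Igkc, Ighm and Iglc2 have no value where immunoglobulin genes are left out. Depth limits Tnfrsf17 and, in EE 4, Irf4, Pou2af1, Mzb1, Iglc2 and Ighm.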
